A study of Mus musculus with 6 samples.

Results

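The 10 genes described here encode the enzymes that carry the tricarboxylic acid (TCA) cycle from 2-oxoglutarate to oxaloacetate, the steps downstream of isocitrate dehydrogenase 3 (IDH3). They were chosen by gene symbol alone, *Ogdh*, *Dlst*, *Dld*, *Suclg1*, *Sucla2*, *Suclg2*, *Sdha*, *Sdhb*, *Fh1* and *Mdh2*, out of 54532 genes in the count table, and all 10 had enough counts to be tested. RNA was sequenced from MLE12 cells, an immortalised mouse lung epithelial line whose labelled strain is C57BL/6J. The control group (Ctrl shRNA, 3 samples) received empty lentiviral vectors at a multiplicity of infection of 50, and the knockdown group (Idh3α + Slc25a1 shRNA, 3 samples) received lentiviruses with shRNAs to *Idh3a* and *Slc25a1*, each at a multiplicity of infection of 50. In both groups the virus was washed off after 16 h and the cells were kept for a further 80 h. The knockdown cells received a pair of viruses. Whether the total dose of empty vector in the controls matched that of the pair is not stated, so the knockdown and the amount of virus cannot be told apart. The labels do not say that the samples were separate cultures, so p-values measure only the spread between these samples, which may be technical.

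IDH3 makes the 2-oxoglutarate that the first of these enzymes consumes, and Slc25a1, the mitochondrial citrate carrier, exports the citrate from which IDH3 would otherwise be fed. The 2-oxoglutarate dehydrogenase complex turns 2-oxoglutarate into succinyl-CoA, succinyl-CoA synthetase turns that into succinate with the formation of ATP or GTP, succinate dehydrogenase oxidises succinate to fumarate and passes the electrons to the respiratory chain, fumarase hydrates fumarate to malate, and malate dehydrogenase makes the oxaloacetate that meets acetyl-CoA. In alveolar type 2 cells, which make surfactant, citrate that leaves the cycle is also a source of acetyl-CoA for lipid synthesis. The comparison asked whether the transcripts of these downstream enzymes differed when the step before them and the exit of citrate were both targeted.

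None of the 10 enzymes passed the test in either direction. With all 6 samples, the adjusted p-values ranged from 0.347 to 0.832 (edgeR's quasi-likelihood test, Benjamini-Hochberg adjustment over 15307 genes), and without the second control sample they ranged from 0.235 to 0.795. Across all genes the same fits called 0.0588% higher and 0.00653% lower in the knockdown with all samples, and 1.11% higher and 0.675% lower without that control, so a count of 0 among 10 genes lies close to the background in both. DESeq2, which called 2.2% of its genes higher and 1.6% lower, also called 0 of the 10, the lowest adjusted p being 0.225. *Ogdh* was the single member with an unadjusted p under 0.05, higher in the knockdown, in both edgeR fits. Over all genes tested, 7.47% were higher and 6.65% lower at that level with all samples, and 9.54% and 10.3% without the second control.

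The second control library stood apart from the other 5, and most of what follows turns on it. Total counts were alike, 27273502 to 28535653 in the controls and 27715153 to 28112519 in the knockdown. In control replicate 2, however, mitochondrially encoded genes took 6.49% of counts against 1.57 to 1.80% elsewhere, 16681 genes had a count against 19902 to 23147, and its log2 CPM (counts scaled for sequencing depth) correlated with the others at 0.945 to 0.963, against at least 0.986 among the others. With it the biological coefficient of variation was 0.263, and without it 0.102. Both targeted transcripts were lower in every knockdown sample. *Idh3a*, the catalytic subunit of IDH3, had 79.8, 137 and 93.0 CPM in the controls and 58.5, 57.9 and 55.5 in the knockdown, a log2 difference of -0.85 ± 0.20 (SE) with an adjusted p of 0.254, and of -0.60 ± 0.08 with an adjusted p of 0.0142 without control replicate 2 (edgeR). *Slc25a1* had 103, 98.7 and 108 CPM in the controls and 68.9, 69.6 and 63.0 in the knockdown, with log2 differences of -0.62 ± 0.08 (adjusted p 0.104) and -0.66 (adjusted p 0.00649). Of 10 alveolar type 2 markers 6 were expressed at testable levels, among them *Nkx2-1* at a mean of 314 CPM and *Sftpc* at 47.3, while *Sftpd* was at 0 in every sample. Their sum was 455 to 741 CPM in the controls and 651 to 686 in the knockdown. The sum of 6 fibroblast markers was 375 to 877 and 337 to 372 CPM, most of it *Dcn*, with *Col3a1* at 0. The sum of 6 epithelial markers was 823 to 1247 CPM in the controls and 1278 to 1376 in the knockdown. Most of it was *Krt19* at a mean of 833 and *Krt8* at 270, followed by *Cdh1* at 75.3, while *Epcam* was at 3.22, *Krt18* at 0.26 and *Cldn7* at 0.12. The sum of 5 endothelial markers was 32.6 to 41.2 CPM in the controls and 33.8 to 35.9 in the knockdown, which overlapped. Nearly all of it was *Tek* at a mean of 35.8, with *Emcn* at 0. The sum of 6 immune markers was 1.37 to 2.60 and 2.81 to 3.46 CPM, most of it *Cd68* at a mean of 2.16, with *Ptprc* and *Itgam* at 0. On raw totals the epithelial and immune sums were thus higher, and the fibroblast sum lower, in every knockdown sample than in any control. The margins were narrow, 375 against 372 CPM for the fibroblast sum and 1247 against 1278 for the epithelial one, and the immune sums were low. Of all single genes tested, 14.7% were wholly higher and 10.7% wholly lower in the knockdown. The part of these markers in the results was not tested.

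The 2-oxoglutarate dehydrogenase complex is built from *Ogdh*, the decarboxylating dehydrogenase, *Dlst*, the lipoate-bearing succinyltransferase core, and *Dld*, the dihydrolipoamide dehydrogenase that it shares with the pyruvate and branched-chain complexes. *Ogdh* (chr11:6291633-6356642, mm10, plus strand) had 148, 128 and 136 CPM in the controls and 157, 198 and 159 in the knockdown. All 3 knockdown samples lay above all 3 controls, the smallest margin being that between 148 and 157. The log2 difference was 0.32 ± 0.12 (95% interval 0.03 to 0.60), a 1.24-fold difference in fitted level, with an unadjusted p of 0.0350 and an adjusted p of 0.347 (edgeR). Without control replicate 2 it was 0.26 ± 0.11 (0.01 to 0.50), with p values of 0.0423 and 0.235. Without the knockdown sample at 198 CPM the log2 difference was 0.20 with an unadjusted p of 0.102, and without control replicate 3 it stayed at 0.30 with a p of 0.1003 (edgeR). An exact permutation test on the CPM gave a two-sided p of 0.1, the smallest that 3 samples against 3 allow.

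*Dlst* (chr12:85110833-85134845, plus strand) was close in all 6 samples, with 124, 119 and 131 CPM in the controls and 141, 140 and 131 in the knockdown. The groups met at 131 CPM, and the log2 difference was 0.14 ± 0.08 (-0.04 to 0.32), and 0.10 ± 0.07 without control replicate 2. *Dld* (chr12:31331277-31351453, minus strand) had 70.5, 120 and 78.8 CPM in the controls and 71.1, 69.1 and 71.4 in the knockdown. The knockdown samples lay close together (mean 70.5 ± 1.29, SD, n = 3), and the control mean of 89.8 ± 26.6 (SD, n = 3) was drawn up by control replicate 2. The log2 difference of -0.35 ± 0.20 became -0.09 ± 0.07 without that sample, and neither passed the test.

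Succinyl-CoA synthetase pairs the common alpha subunit encoded by *Suclg1* with a beta subunit that sets the nucleotide, ATP for *Sucla2* and GTP for *Suclg2*. *Suclg1* (chr6:73248382-73276911, plus strand) had 79.9, 130 and 90.5 CPM in the controls and 80.9, 82.4 and 82.6 in the knockdown. *Sucla2* (chr14:73525319-73596142, plus strand) had 82.5, 171 and 94.6 CPM in the controls and 86.1, 91.9 and 80.8 in the knockdown. In both genes control replicates 1 and 3 bracketed or nearly bracketed the knockdown samples, with replicate 3 above all of them at 90.5 and 94.6 CPM. Control replicate 2 lay furthest above. The log2 differences of the 2 genes were -0.29 ± 0.18 and -0.43 ± 0.27 with all samples, and -0.06 ± 0.07 and -0.05 ± 0.08 without control replicate 2. *Suclg2* (chr6:95473009-95718800, minus strand) was the lowest of the 10, with 23.7, 27.1 and 20.8 CPM in the controls and 26.0, 26.6 and 22.1 in the knockdown, and a log2 difference of 0.06 ± 0.13 (-0.26 to 0.38). Without control replicate 2 this was 0.15 ± 0.11 (-0.10 to 0.41), and without control replicate 3 it turned to -0.043.

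Succinate dehydrogenase is also complex II of the respiratory chain, with *Sdha* encoding the flavoprotein that binds succinate and *Sdhb* the iron-sulphur subunit that takes its electrons. *Sdha* (chr13:74322254-74350280, minus strand) had 158, 156 and 174 CPM in the controls and 160, 141 and 145 in the knockdown. The groups overlapped, and the log2 difference was -0.14 ± 0.09 with all samples and -0.17 ± 0.08 (-0.35 to 0.00) without control replicate 2, the latter with an unadjusted p of 0.0544 and an adjusted p of 0.262 (edgeR). *Sdhb* (chr4:140961203-140979193, plus strand) showed the widest spread of the 10 relative to its mean (coefficient of variation 67.2% in the controls), with 92.7, 303 and 118 CPM in the controls and 99.5, 89.1 and 93.5 in the knockdown. Control replicate 2 was 2.88-fold above the mean of the other two controls, and the log2 difference moved from -0.86 ± 0.44 (-1.92 to 0.20) to -0.17 ± 0.10 (-0.40 to 0.06) when it was left out. The membrane anchors of the complex, *Sdhc* and *Sdhd*, did not pass the test either, with log2 differences of -0.03 and -0.44 (adjusted p 0.917 and 0.435), and of 0.10 and -0.05 without control replicate 2 (edgeR).

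*Fh1*, which encodes fumarase (chr1:175600374-175625635, minus strand), had 67.4, 115 and 71.5 CPM in the controls and 69.8, 68.0 and 65.8 in the knockdown. Without the sample at 115 CPM the groups interleaved, and the log2 difference went from -0.32 ± 0.21 to -0.04 ± 0.07. *Mdh2*, the mitochondrial malate dehydrogenase (chr5:135778480-135790398, plus strand), was the highest of the 10, with 296, 516 and 287 CPM in the controls and 325, 345 and 303 in the knockdown. Its direction turned on control replicate 2. With all samples the log2 difference was -0.17 ± 0.24 (-0.76 to 0.41), and without that control it was 0.15 ± 0.08 (-0.03 to 0.32), with all 3 knockdown samples then above both remaining controls and an adjusted p of 0.320 (edgeR).

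**Figure D1:**
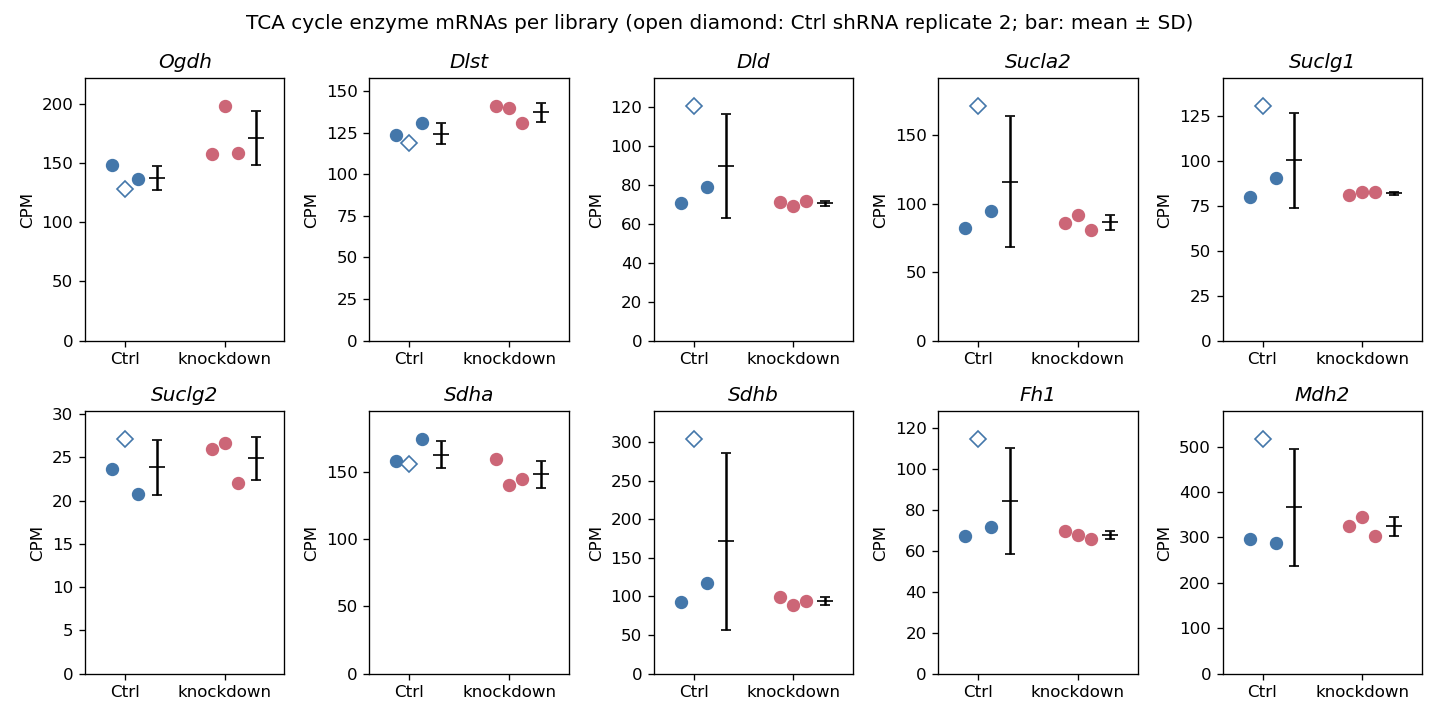
Depth-scaled counts (CPM, TMM scaling) of each of the 10 enzymes in the 3 Ctrl shRNA and 3 Idh3α + Slc25a1 shRNA samples; each point is a sample, the open diamond is control replicate 2 and the bar is the mean ± SD. Control replicate 2 lies far above the other 5 samples for *Sdhb*, at 303 CPM, and within or just below their range for *Ogdh*, *Dlst* and *Sdha*.

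Counting over the 10 genes, 3 log2 differences were positive and 7 negative with all samples, with a median of -0.23 against -0.01 for all genes tested. Without control replicate 2, 4 were positive and 6 negative, and the median was -0.05 against -0.02. Scaling by library size alone moved the median of all genes to 0.16 and that of the members to -0.01, with 5 positive and 5 negative, so the members' median lay below that of all genes under either scaling while the signs moved with a shift common to all genes. Groups did not overlap for 1 member, *Ogdh*, which was higher in the knockdown, where 14.7% of all genes tested were wholly higher and 10.7% wholly lower. Without control replicate 2, *Ogdh* and *Mdh2* were wholly higher and none wholly lower, against 20.3% and 17.3% of all genes. The 95% intervals held 0 for every member but *Ogdh* in both fits. With all samples they ran from 0.264-fold to 1.52-fold, and without control replicate 2 from 0.757-fold to 1.42-fold, so the smaller set of samples bounded each difference more tightly than the full one.

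**Figure D2:**
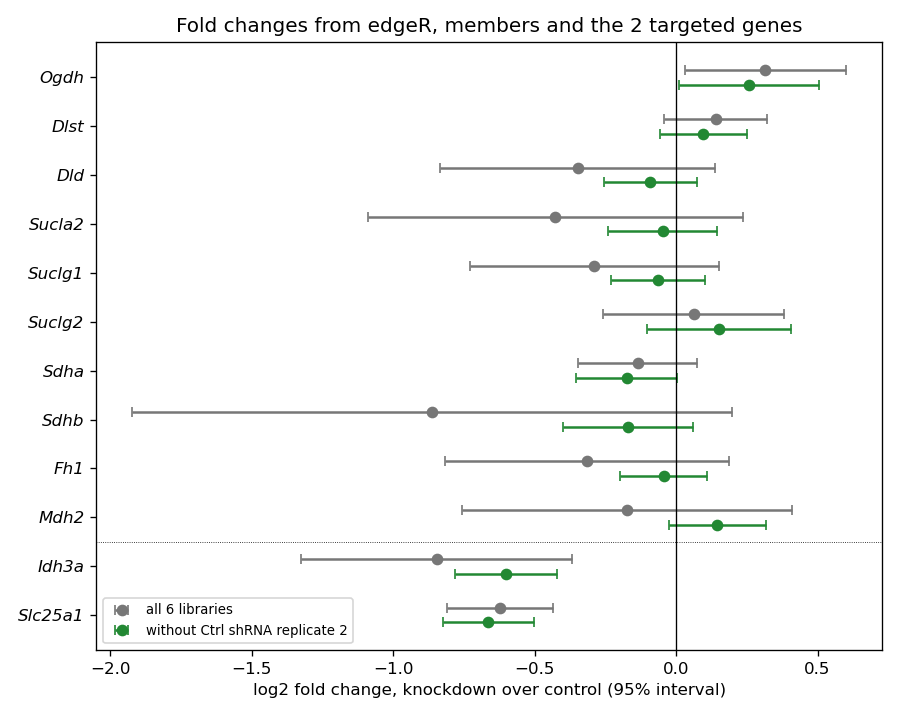
Log2 difference (Idh3α + Slc25a1 shRNA over Ctrl shRNA) with 95% intervals from edgeR for each enzyme, and for the targeted *Idh3a* and *Slc25a1* under the dotted line; grey uses all 6 samples and green leaves out control replicate 2. The green intervals are narrower, *Ogdh* is the only enzyme whose intervals leave out 0, and *Mdh2* changes sign between the fits.

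Control replicate 2 was the highest of all 6 libraries for 7 of the 10 enzymes and the lowest for *Ogdh* and *Dlst*, while 34.4% of all tested genes were highest and 38.6% lowest in it. Its distance from the mean of the other two controls differed widely between enzymes of the same complex. It was 0.901-fold for *Ogdh* and 0.930-fold for *Dlst* but 1.61-fold for *Dld*, and 0.940-fold for *Sdha* but 2.88-fold for *Sdhb*. Over all genes this deviation moved with gene length, with a median log2 value of 0.33 in genes of up to 2173 bases, -0.02 in those of 2174 to 3841, -0.09 in those of 3842 to 6190, and -0.13 in genes of 6192 bases or more. *Sdhb* is the shortest of the 10 at 2239 bases and *Dlst* the longest at 9559, but *Sdha*, at 4126 bases, and *Sucla2*, at 3988, are of like length and deviated by 0.94-fold and 1.93-fold. The part of length or of the mitochondrial share in these deviations was not tested. Before scaling the members deviated in both directions. *Sdhb* had 5989 raw counts in control replicate 2 against 2870 and 3376 in the other two controls, while *Ogdh* had 2531 against 4585 and 3905 and *Dlst* 2344 against 3836 and 3764. Summed over the 10 enzymes these deviations offset each other in the raw counts, of which they took 0.124, 0.127 and 0.126% in the controls and 0.129, 0.135 and 0.123% in the knockdown. After scaling they did not, the sum being 1785 CPM in control replicate 2 against 1143 to 1251 in the other 5 libraries, with a scaling factor of 0.711 in that library and of 1.05 to 1.08 in the others.

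**Figure D3:**
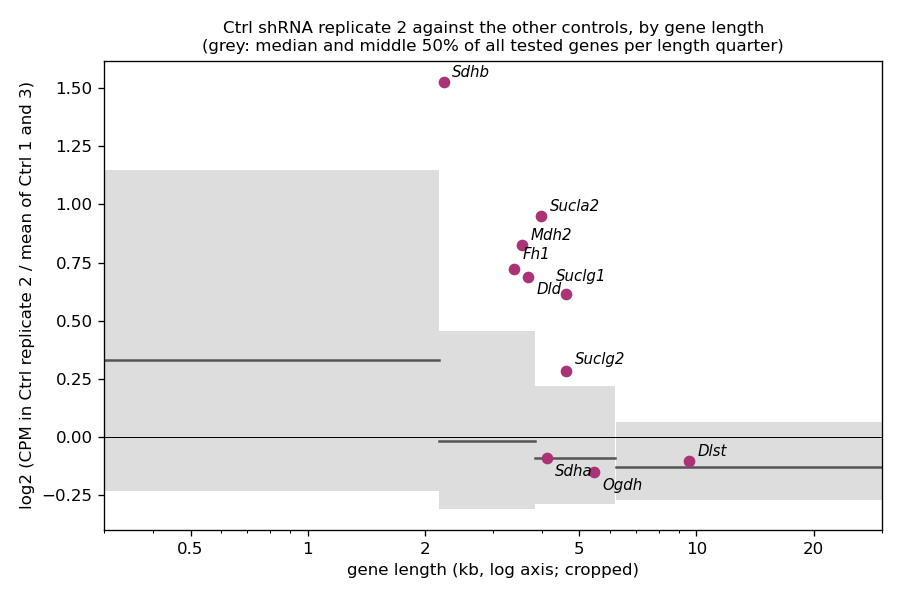
Log2 ratio of control replicate 2 to the mean of control replicates 1 and 3 (vertical axis) against gene length in kilobases (horizontal, log axis) for the 10 enzymes; grey bars give the median and middle 50% of all tested genes in each of 4 length classes of equal size. *Sdhb*, the shortest, lies highest at a log2 ratio of 1.53, and *Ogdh*, *Dlst* and *Sdha* lie just below 0.

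Levels can be compared between genes only per length, and CPM per kilobase of exon was used for this. In the knockdown, whose samples were close, *Mdh2* was highest at 91.1 ± 5.92 CPM per kilobase (SD, n = 3), followed by *Sdhb* at 42.0 ± 2.32, *Sdha* at 36.0 ± 2.44 and *Ogdh* at 31.4 ± 4.21. The ranges of *Sdha* and *Ogdh* overlapped. Below them came *Sucla2* at 21.6 ± 1.39 and *Fh1* at 20.01 ± 0.593, which also overlapped, then *Dld* at 19.2 ± 0.351, *Suclg1* at 17.8 ± 0.212, *Dlst* at 14.4 ± 0.596 and *Suclg2* at 5.38 ± 0.536. In the controls *Mdh2* at 103 ± 36.4 and *Suclg2* at 5.16 ± 0.682 held the same ends of the order, but the ranges of neighbours from *Mdh2* down to *Suclg1* overlapped. The exon length covers every annotated transcript, so a gene with long rarely used exons is placed too low, and the order among close genes depends on it.

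Ratios within a sample do not depend on the scaling between libraries. Per kilobase, transcripts of the ATP-type beta subunit exceeded those of the GTP-type in every sample. *Sucla2* over *Suclg2* was 4.04, 7.32 and 5.28 in the controls and 3.84, 4.001 and 4.25 in the knockdown. The difference was -0.42 on the log2 scale, with an exact two-sided permutation p of 0.2 and an adjusted p of 0.333 over 5 ratios, and it was -0.20 without control replicate 2. The ratio of the succinyltransferase to the dihydrolipoamide dehydrogenase, *Dlst* over *Dld*, was 0.677, 0.380 and 0.642 in the controls and 0.763, 0.783 and 0.705 in the knockdown. All 3 knockdown samples were above all controls, a log2 difference of 0.45 with an exact permutation p of 0.1 and an adjusted p of 0.333, and it was 0.19 without control replicate 2. *Ogdh* over *Dlst* was 2.09, 1.89 and 1.82 against 1.95, 2.47 and 2.13, and the groups overlapped. *Sdha* over *Sdhb* was 0.928, 0.280 and 0.804 in the controls and 0.872, 0.856 and 0.842 in the knockdown, so that the knockdown lay between the outer controls and control replicate 2 lay far below all others. With 3 samples against 3 the exact test cannot go below 0.1.

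**Figure D4:**
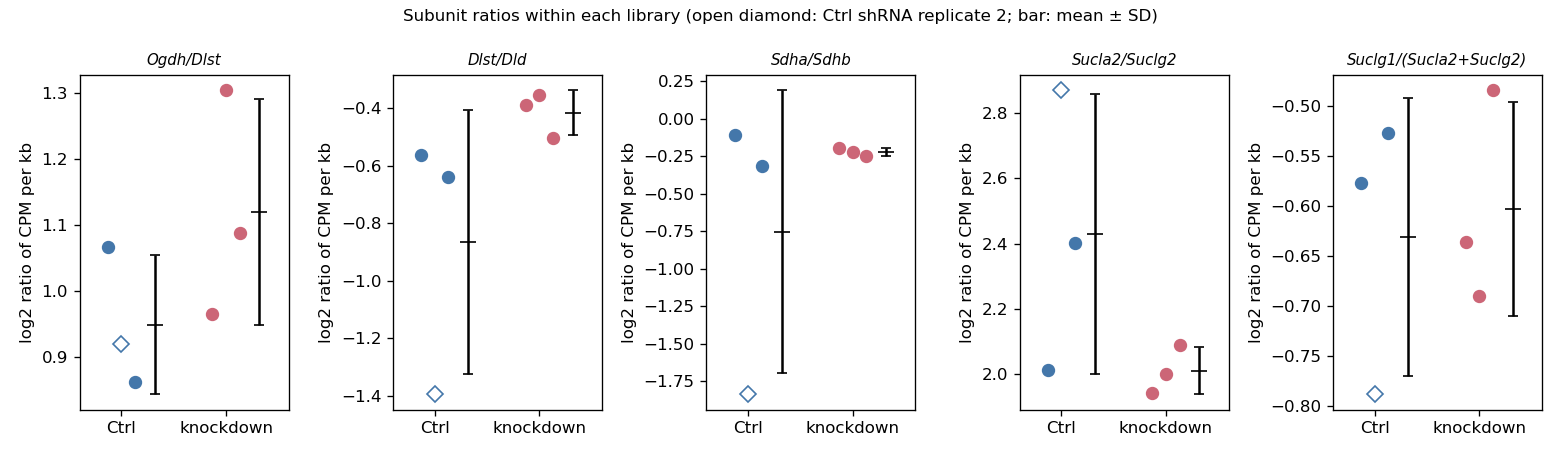
Ratios of CPM per kilobase between subunits of the same complex in each sample, Ctrl shRNA and Idh3α + Slc25a1 shRNA, with the mean ± SD as a bar and control replicate 2 as an open diamond. *Dlst* over *Dld* is above all controls in the knockdown, and control replicate 2 gives the lowest *Sdha* over *Sdhb*, at 0.280, and the highest *Sucla2* over *Suclg2*, at 7.32.

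The windows upstream of the 10 start sites were read from RefSeq (GRCm38.p6), 250 bases each, and searched on both strands for 5 motifs known from promoters. The binding motif of NRF1, a factor known for driving nuclear genes of the respiratory chain, was searched as GCGCANGCG and matched in *Sdha* and *Sucla2*, against 5.16% of all 32851 promoter windows. CCAAT matched in 6 members against 33.8% of all windows, and the GC box GGGCGG matched in 7 against 32.7%, with 1 overlapping pair of matches, in *Suclg2*. CACGTG and TATAAA matched in none, against 6.02% and 12.4%. The windows of the members held 43.6 to 64.8% G and C, with a median of 61.0% against 52.4% over all windows. A match is a description of letters and not of binding. *Sdha* is shown because it held the most NRF1 matches, *Sucla2* because it held the other, and *Ogdh* because it had the lowest p-value of the 10. Capitals mark matches to NRF1, CCAAT or GGGCGG on either strand, and each sequence is written 5′ to 3′ on the strand of the gene.
Sdha, chr13:74350281-74350490, minus strand, the stretch before the deposited gene start: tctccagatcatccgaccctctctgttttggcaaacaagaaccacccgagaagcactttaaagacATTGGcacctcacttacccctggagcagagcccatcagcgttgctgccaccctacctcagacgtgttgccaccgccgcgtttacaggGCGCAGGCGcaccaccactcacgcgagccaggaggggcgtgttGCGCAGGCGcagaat
Ogdh, chr11:6291409-6291632, plus strand, the stretch before the deposited gene start: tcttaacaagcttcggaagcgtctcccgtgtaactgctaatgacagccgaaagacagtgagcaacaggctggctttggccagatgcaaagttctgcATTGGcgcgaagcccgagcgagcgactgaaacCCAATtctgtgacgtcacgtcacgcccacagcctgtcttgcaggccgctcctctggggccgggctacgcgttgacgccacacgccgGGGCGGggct
Sucla2, chr14:73552760-73552785, plus strand, next to the RefSeq start and inside the deposited gene span: tgcgtctctgCGCCTGCGCggtgccc
The *Sdha* window held 3 NRF1 matches, of which 2 lie in the stretch shown, and its CCAAT match reads ATTGG because it is on the other strand.

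The genes around these steps were described from lists of the neighbouring reactions. Of 9 tested genes for other subunits and assembly factors of these complexes and for the *Ogdh* paralogues *Ogdhl* and *Dhtkd1*, 2 log2 differences were positive and 7 negative, with a median of -0.44, and without control replicate 2 they were 3 and 6 with a median of -0.05. None of the 9 passed edgeR's test in either fit. At an unadjusted p under 0.05, 1 was lower in each edgeR fit, against 6.65% of all genes with all samples and 10.3% without that control, and 2 were lower by DESeq2, against 1607 of 15307 genes. DESeq2 with all samples, which called 1.6% of its genes lower, called *Sdhaf4*, an assembly factor of succinate dehydrogenase named here after its values were seen. *Sdhaf4* had 9.66, 71.4 and 14.9 CPM in the controls and 7.06, 5.37 and 7.86 in the knockdown, and without control replicate 2 its log2 difference was -0.87 with an adjusted p of 0.0882 (edgeR). Of the 6 genes from citrate synthase to IDH, *Idh3a* was the one called, lower, by DESeq2 with all samples and by edgeR without control replicate 2, and the medians were -0.04 and -0.02. At an unadjusted p under 0.05, 1 was higher and 1 lower in both edgeR fits. The shares of all genes were 7.47% and 6.65% with all samples, and 9.54% and 10.3% without that control. DESeq2 also gave 1 and 1, against 1095 and 1607 of 15307 genes. The higher one, citrate synthase *Cs*, named after its values were seen, had a log2 difference of 0.30 (unadjusted p 0.0239, adjusted p 0.339, edgeR), and of 0.24 without control replicate 2. The 6 genes of the malate-aspartate shuttle had 4 positive and 2 negative differences with a median of 0.11, and none passed. At an unadjusted p under 0.05, 2 of the 6 were higher and 0 lower by edgeR, where 7.47% of all genes were higher and 6.65% lower, and 2 were higher and 1 lower by DESeq2, where 1095 of 15307 genes were higher and 1607 lower. Without control replicate 2 edgeR gave 3 higher and 1 lower, against 9.54% and 10.3% of all genes. The 10 genes for entry to and exit from the cycle had 5 positive and 5 negative differences with a median of -0.01, and 4 and 6 with a median of -0.05 without control replicate 2. At an unadjusted p under 0.05, 2 were higher and 1 lower in both edgeR fits, against 7.47% and 6.65% of all genes with all samples and 9.54% and 10.3% without that control. The higher pair, named after their values were seen, was pyruvate carboxylase *Pcx*, which makes oxaloacetate from pyruvate, at a log2 difference of 0.32 (adjusted p 0.315), and the cytosolic malic enzyme *Me1* at 0.30 (adjusted p 0.324). The lower one, *Pck2*, the mitochondrial phosphoenolpyruvate carboxykinase that consumes oxaloacetate, had 94.4, 81.9 and 97.2 CPM in the controls and 72.2, 65.7 and 62.0 in the knockdown. All 3 knockdown samples were below all controls, with a log2 difference of -0.45 (adjusted p 0.245) and, without control replicate 2, of -0.53 ± 0.08 (adjusted p 0.0174, edgeR). DESeq2 with all samples also called *Pck2* lower. The 4 genes of lipoate synthesis and attachment, *Lias*, *Lipt1*, *Lipt2* and *Mcat*, the last an enzyme of the mitochondrial fatty acid synthesis that supplies the precursor, had medians of 0.01 and -0.13, and 0 passed by edgeR or DESeq2, also at an unadjusted p under 0.05.

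The nuclear genes of the respiratory chain and ATP synthase had medians that moved with control replicate 2. Of 82 tested, 79 had negative log2 differences with a median of -1.18 and none passed edgeR's test, though 32 were lower at an unadjusted p under 0.05, where 6.65% of all genes were, and DESeq2 called 7 lower, where it called 1.6% of all genes. Without that control 72 were negative, the median was -0.28, 33 were lower at an unadjusted p under 0.05, where 10.3% of all genes were, and 2 were called lower, against 0.675% of all genes, *Atp5g2* and *Cox7a2l*, named after their values were seen. The 12 tested mitochondrially encoded genes had a median of -1.35 with all samples and of 0.04 without control replicate 2, and none passed edgeR's or DESeq2's test, with 1 lower at an unadjusted p under 0.05 in each edgeR fit, against 6.65% of all genes with all samples and 10.3% without that control, and 6 lower by DESeq2, against 1607 of 15307 genes.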

How the data were processed

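RNA-seq libraries of 3 Ctrl shRNA and 3 Idh3α + Slc25a1 shRNA samples of MLE12 cells were analysed. The authors deposited raw read counts per gene, and FPKM values, which are scaled to gene length and to a library size the authors set; the submitters' processing notes name HISAT2 2.0.5, StringTie 1.3.3b, featureCounts 1.5.0-p3 and the mm10 build. Groups came from the sample labels. Counts were fitted over all genes passing edgeR's expression filter with TMM scaling and the quasi-likelihood test (edgeR 4.0.16, R 4.3.3), all 6 samples entering the main result, and p-values were adjusted by Benjamini-Hochberg at 0.05. CPM in the text are TMM-scaled, except marker sums, which use raw totals. DESeq2 1.42.0, limma 3.58.1 with quality weights, limma on log2(FPKM + 1) and log2(FPKM + 0.1) for genes of at least 0.1 FPKM in 3 samples, other filters and scalings, and each sample left out in turn were alternatives. The fits were also run on simulated counts in which no library stood apart as control replicate 2 does, so those runs cannot speak to its effect. The members, gene lists and tests were chosen with earlier results of these data known, and the promoter motifs after the values were seen. Genes given with a test outside the 10 were the targets, *Sdhc* and *Sdhd*, and list members called by edgeR in either fit, other exceptions being stated; marker genes, and genes named only to say what a list holds, were not chosen by this rule. Counts summed over all genes were 27273502 to 28535653 per sample, with 535 to 10476 per member and sample. Exact permutation tests were two-sided. Overlapping neighbours of *Sucla2*, *Fh1* and *Sdha* lie on the opposite strand with no shared exon bases.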

Additional observations from a re-analysis of the deposited data

How the results depend on the processing

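None of the 10 enzymes passed an adjusted p of 0.05 under the main setting or any of 17 alternatives, the lowest adjusted p being 0.144 for *Ogdh* (limma with sample quality weights). At an unadjusted p under 0.05 the count of higher members was 1 and that of lower members 0, but *Sdhb* (p 0.0249), *Dld* (0.0391) and *Suclg1* (0.0426) were lower at that level without control replicate 1, and *Sdhb* (0.0480) with no count filter (edgeR). *Ogdh*, the higher one, missed that level with scaling by library size alone (p 0.0917), with the replicate block (0.0844), and without control replicate 3 or knockdown replicate 2. Of 170 member values under alternatives 164 kept direction and side of the threshold, and 6 reversed: *Suclg2* at -0.043 without control replicate 3, *Sdha* at 0.031 and *Mdh2* at 0.076 with scaling by library size alone, and *Mdh2* at 0.15 without control replicate 2 by edgeR, 0.15 by DESeq2 without it and 0.12 with quality weights. *Ogdh* ranged from 0.20 to 0.48 over all alternatives, and *Mdh2* from -0.34 to 0.15 with each sample left out, as did *Suclg2* from -0.043 to 0.15. *Idh3a* passed at -0.60 without control replicate 2, -0.86 by DESeq2, -0.60 by DESeq2 without that control and -0.66 with quality weights, and ranged from -0.997 to -0.60 with each sample left out. *Slc25a1* passed at -0.66, -0.63, -0.66 and -0.67 in the same order, and ranged from -0.66 to -0.57. With each sample left out, the log2 difference of *Sdha* over *Sdhb* ranged from -0.012 to 0.85 and that of *Suclg1* over both beta subunits from -0.051 to 0.079, the former turning without control replicate 2 (-0.012) and the latter without it (-0.051) or without knockdown replicate 3 (-0.032). The members' median ranged from -0.36 to -0.05 with a sample left out. With the replicate number as a block it was -0.20, with 0 members called, and over all genes the block took the calls from 9 higher and 1 lower to 0. Deviations of same-numbered samples from their group means correlated at -0.21, -0.16 and 0.02, and those of differently numbered samples at -0.05 to 0.22. With 3 samples per group these values cannot tell whether same-numbered samples were handled together. Calls over all genes were 175 higher and 106 lower without control replicate 2, 265 and 192 by DESeq2, 543 and 383 by DESeq2 without it, 469 and 232 with quality weights, and 0 or 1 with any other sample left out; why the calls differ was not tested. All 10 members had at least 535 counts in each sample, and the share of counting error in their spread was not tested.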
